A study of Mus musculus with 6 samples.

Results

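Flk1+ mesoderm cells sorted as positive for a reporter of the blood regulator Scl were compared with reporter-negative Flk1+ cells of the same culture system. The comparison took 4 of the 6 arrays of the series, chosen by their sample titles: WT Scl+ (n = 2) and WT Scl- (n = 2). Both groups came from the WT hCD4 Scl reporter mESC line, a mouse embryonic stem (ES) cell line derived from R1 in which human CD4 was knocked in at the Scl locus, so that human CD4 on the cell surface reports Scl transcription. The number of Scl alleles with the insertion is not stated, nor whether the line is 1 clone. ES cells were kept for 2 days in a pre-differentiation medium with serum and LIF, then plated at 100000 cells per well as embryoid bodies, floating aggregates in which germ layers form. On day 4 the cells were dissociated and sorted as Flk1+ hCD4+ or Flk1+ hCD4-. The other 2 arrays hold SclKO cells, which lack functional Scl, derive from the J1 line and were sorted on Flk1 alone. They entered the estimate of the spread, the choice of each gene's probe set, the filter on dim genes and, where stated, a side-by-side level. The labels do not call the replicates separate cultures. The p-values then reflect the spread between the arrays alone, which may be technical.

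Flk1 (gene Kdr) is the main VEGF receptor and marks the mesoderm from which blood, endothelium and heart arise. Scl, encoded by Tal1, belongs to the basic helix-loop-helix (bHLH) factors and binds DNA with E proteins, LMO2, LDB1 and GATA factors, and it is required for all blood formation. Before Scl is on, such mesoderm has passed through the primitive streak, where T-box, homeobox and Mesp factors act under Nodal, Wnt and BMP signals.

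Levels are natural logs of the deposited values, and differences are WT Scl+ minus WT Scl- in these log units. A difference of 1 log unit is 2-fold if the natural log is the log2 value that RMA gives, and 2.72-fold if the deposited values are linear; which one holds is not stated. Where a gene's levels are listed, replicate 1 comes before replicate 2. A level under its array's 40th percentile, 4.54 to 4.59, is called dim and gives no exact value. Not every dim level is marked below: any listed level under 4.54 is dim, and a difference that rests on it is not exact. Where both arrays of a group were dim, the difference with dim values set to that limit is also given. For arrays there is no read depth, and their number limits the precision.

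No gene passed limma's test after Benjamini-Hochberg adjustment. Of 12923 genes tested, 0 (0%) had an adjusted p under 0.05, and the lowest adjusted p was 0.399. Before adjustment, a p under 0.05 was reached by 698 genes (5.4%) with a higher and 483 (3.74%) with a lower level in WT Scl+, where 646 in all would reach it by chance. With each array centred on its median the split was 627 higher and 647 lower. Genes are therefore described by size: a gene counts here if its mean difference was at least 1 log unit and the 4 arrays did not overlap. By this rule 239 genes (1.85%) were higher and 154 (1.19%) lower. Of the tested genes, 4832 (37.4%) did not overlap at any size. The adjusted p is at least 0.399 for every gene below.

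**Figure D1:**
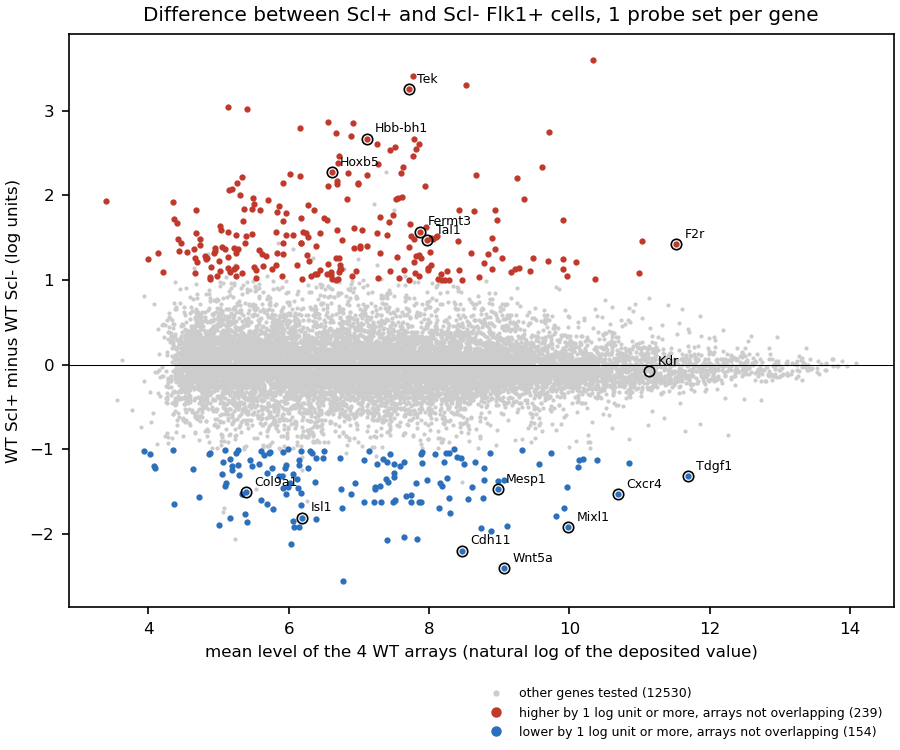
Each point is 1 of 12923 genes, with its mean level over the 4 WT arrays (natural log) on the x axis and the difference WT Scl+ minus WT Scl- (log units) on the y axis. The 239 red genes were higher by at least 1 log unit without overlap of the arrays, the 154 blue genes were lower, and ringed genes carry their names.

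The replicates of a group were not always nearest to each other, so the labels of the arrays may need checking. Over all genes tested, WT Scl+ replicate 1 correlated at r = 0.9687 with WT Scl+ replicate 2 but at 0.9866 with WT Scl- replicate 2, and the WT Scl- replicates correlated at 0.9835 with each other (genes are not independent replicates). The labels were used as given, and if one were wrong every difference below would change. Of the 239 genes that were higher, 228 had WT Scl- replicate 2 nearer to WT Scl+ than replicate 1 was. Their median levels were 7.32 and 7.65 in WT Scl+ and 5.13 and 6.50 in WT Scl-. Of the 154 genes that were lower, 149 had WT Scl+ replicate 2 farther from WT Scl- than replicate 1 was, with median levels of 6.84 and 5.67 in WT Scl+ and 7.90 and 7.52 in WT Scl-. The arrays that set the size of a difference are thus not the same in the 2 directions. Without WT Scl- replicate 1 the count of higher genes was 129, and without WT Scl+ replicate 2 the count of lower genes was 54. Without WT Scl+ replicate 1 the counts were 381 higher and 556 lower, and 35 and 168 genes had an adjusted p under 0.05. Without WT Scl- replicate 2, 398 genes were higher and 253 lower. Without WT Scl- replicate 1 the difference shrank by over 1.5 times in 136 of the 239 higher genes. Without WT Scl+ replicate 2 it did so in 105 of the 154 lower genes. Its sign could not change in any of them, because the rule asks that the arrays do not overlap.

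The SclKO arrays did not enter the size rule itself, although they helped to choose the probe sets and the genes tested. They had median levels of 5.52 and 6.01 over the 239 higher genes and 7.80 and 7.47 over the 154 lower genes. In both sets these medians lay on the WT Scl- side of the WT Scl+ medians. The SclKO cells differ from both WT groups in Scl, ES line and sort gate, which cannot be told apart.

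**Figure D2:**
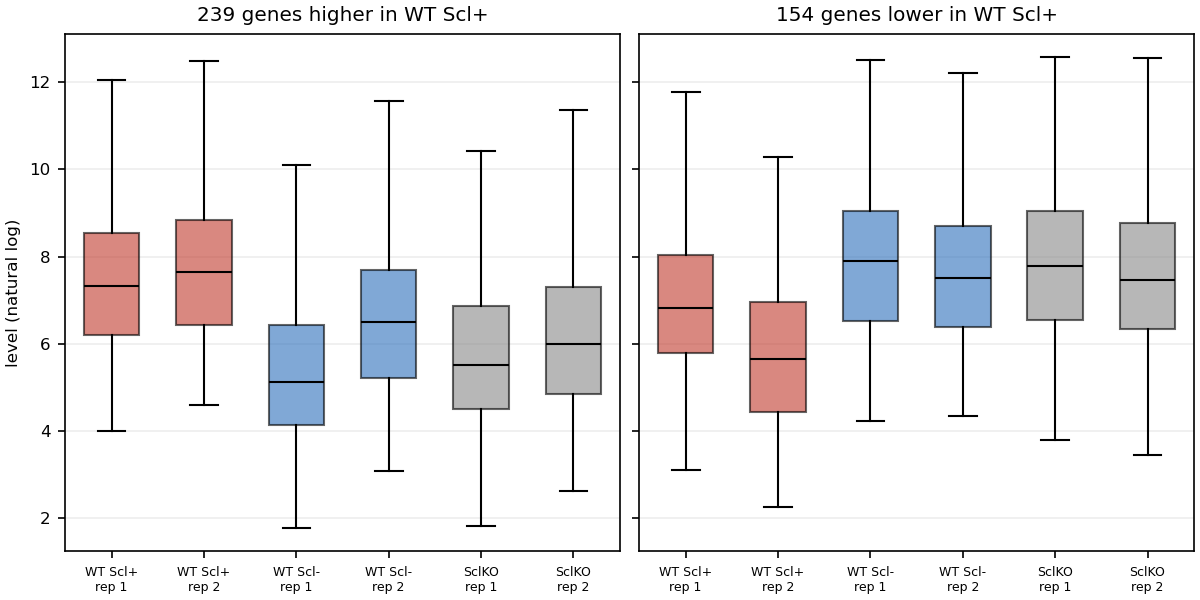
Boxes show the level (natural log) of the 239 higher genes (left) and the 154 lower genes (right) on each of the 6 arrays, with the median as a line, the box over the interquartile range and whiskers to the lowest and highest gene. In the left panel WT Scl- replicate 2 (median 6.50) lies between WT Scl- replicate 1 (5.13) and the WT Scl+ arrays (7.32 and 7.65); in the right panel WT Scl+ replicate 2 (5.67) lies lowest.

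The sorted cells were checked against markers. Kdr was at 11.35 and 10.86 in WT Scl+ and at 11.14 and 11.23 in WT Scl-, overlapping between groups (difference -0.08, SE 0.22). Tal1, whose locus carries the reporter used for the sort, was at 8.65 and 8.78 in WT Scl+ and at 6.52 and 7.97 in WT Scl-. It was thus above the dim limit on all 4 WT arrays, and WT Scl- does not mean without Tal1 RNA. The arrays did not overlap, and the difference of 1.47 (SE 0.45, adjusted p = 0.442) was 0.74 without WT Scl- replicate 1. The mesoderm markers Pdgfra, Etv2 and Mesp1 were above the dim limit on all 4 WT arrays. Genes of other cell types were also above the limit. The pluripotency factors Pou5f1 (Oct4) and Nanog were above it on all 4, at 7.79 to 9.26 and at 6.26 to 8.59. So were the endoderm genes Ttr, Foxa2 and Sox17, of which Sox17 is also an endothelial factor, and the neural genes Pax6, at 4.79 to 5.06, and Nes, at 6.99 to 8.20. In the same classes, Sox1 was dim on all 4, and Afp and Sox2 were above the limit on 1 WT Scl+ array and on no WT Scl- array. Their part in the differences below was not tested. Ptprc (CD45), found on mature blood cells, was dim on all 4 arrays. The macrophage genes Csf1r and Tyrobp were above the limit on all 4 arrays, with differences of 0.42 and 0.54. In bulk RNA of sorted cells, a larger share of cells of a type and more RNA per cell cannot be told apart.

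Partners of Scl and other bHLH factors were higher in WT Scl+ in 8 of 16 tested members by the size rule and lower in 0. Their median difference was 0.91, beside -0.02 over all genes tested, and 0.42 without WT Scl- replicate 1. Lyl1, the bHLH factor closest to Scl, was at 7.35 and 7.87 in WT Scl+ and at 4.81 and 6.20 in WT Scl- (difference 2.11, SE 0.45). Cbfa2t3 (ETO2), a corepressor that binds the Scl complex, was at 8.54 and 9.71 against 5.46 and 7.45 (2.67, SE 0.73), while its other probe sets gave 0.64, 1.25 and 0.34. On the probe sets used, both showed the same order of arrays, with WT Scl- replicate 2 in between. Tal2, another Scl relative, was at 8.26 and 8.67 against 4.69 and 7.49, a difference of 2.37 that was 0.98 without WT Scl- replicate 1 and 0.58 in another probe set. Without that array the difference of Cbfa2t3 was 1.67. Lmo2, the bridging LIM protein of the complex, was at 11.65 and 11.88 against 9.24 and 11.37, and its difference of 1.46 was 0.39 without it. The ubiquitous partners had smaller differences: the E proteins Tcf3 and Tcf12 differed by 0.07 (SE 0.14) and 0.15 (SE 0.15), and Ldb1 by 0.26 (SE 0.20). Other probe sets of Tcf12 gave 0.26, -1.25 and -0.12.

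Red cell regulators within the same list were higher on WT Scl+ replicate 1 than on replicate 2. Gata1, the master factor of red cells and megakaryocytes, was at 7.48 and 6.08 in WT Scl+ and at 4.93 and 5.22 in WT Scl- (1.70, SE 0.44). Klf1, the beta-globin activator, was at 7.15 and 5.24 against 4.22 and 4.78 (1.70, SE 0.59), and Nfe2 at 7.63 and 6.91 against 4.74 and 6.13 (1.83, SE 0.47). In all 3, WT Scl+ replicate 1 was the higher array. Without it the difference of Klf1 was 0.74 and that of Gata1 1.01. Gata2, which acts earlier in blood progenitors, was at 9.22 and 9.46 against 6.59 and 8.42 (1.83, SE 0.54), with both WT Scl+ arrays close together. Gata2 and Nfe2 differed by 0.92 and 1.13 without WT Scl- replicate 1.

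Among factors of definitive blood stem and progenitor cells, 9 of 16 tested members were higher and 1 lower, with a median difference of 1.51 that was 0.86 without WT Scl- replicate 1. Ikzf1 (Ikaros), a lymphoid and progenitor factor, was at 8.31 and 8.38 in WT Scl+ and at a dim 4.41 and 6.58 in WT Scl- (2.85, SE 0.64). Another probe set of Ikzf1 gave 1.14. Myb, needed for definitive but not for the first blood cells, was at 8.80 and 8.62 against 4.88 and 7.47 (2.53, SE 0.76), and its other 2 probe sets gave 2.28 and 2.75. Gfi1b, a transcriptional repressor that acts in red cells and megakaryocytes, was at 6.74 and 6.46 against 4.76 and 5.33. Its difference of 1.56 (SE 0.24) lay between 1.27 and 1.85 when each WT array was left out in turn. Gfi1, a relative of Gfi1b, differed by 1.84 (SE 0.59), with WT Scl- replicate 1 dim at 3.68. Hhex, a homeobox factor of blood and endothelial progenitors, was at 9.79 and 9.92 against 7.19 and 8.87 (1.83, SE 0.51). Ikzf2 (Helios) was at 6.96 and 6.51 against a dim 4.13 and 5.73 (1.80, SE 0.49), and Mef2c at 5.74 and 7.04 against a dim 3.60 and 5.51 (1.84, SE 0.73, or 0.82 in another probe set). Without WT Scl- replicate 1 the differences of Gfi1, Hhex, Ikzf2 and Mef2c were 1.08, 0.99, 1.01 and 0.88. Stat5a, a cytokine signal factor, was at 9.16 and 9.12 against 7.07 and 8.30 (1.46, SE 0.39), and another probe set gave 0.22. Leaving out the same array gave 1.77 for Ikzf1, 1.24 for Myb and 0.84 for Stat5a. Mecom was at 5.13 and 5.35 against 2 dim values, 3.08 and 4.07 (1.67, or 0.66 at the limit). Runx1, the factor of the endothelial to blood transition, missed the size rule at 8.79 and 8.47 against 7.23 and 8.08 (0.98, SE 0.31), with other probe sets between 0.38 and 0.92. Lmo1, a relative of Lmo2, was the member in the other direction, at 5.15 and 5.65 against 6.26 and 6.60 (-1.03, SE 0.26).

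Of 10 tested genes of finished red cells 3 were higher and 0 lower, and 5 of 15 on the array were too dim to test. The median difference was 0.51, from 0.39 without WT Scl+ replicate 2 to 0.64 without WT Scl+ replicate 1. Hbb-bh1, an embryonic beta globin, was at 8.85 and 8.04 in WT Scl+ and at 4.99 and 6.55 in WT Scl- (2.67, SE 0.54), and its other probe sets gave 3.89 and 3.39. Hba-x, the embryonic alpha globin, was at 5.72 and 5.18 against dim values of 3.81 and 3.99 (1.55, SE 0.23, or 0.87 at the limit). Gypc, a membrane glycoprotein of red cells, was at 7.57 and 7.13 against 5.95 and 6.23 (1.26, SE 0.26). All 3 were higher on WT Scl+ replicate 1 than on replicate 2. Globin genes share sequence, and probe sets of one can read another.

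Surface proteins of early blood and megakaryocytes were higher in 6 of 11 tested members and lower in 0, with a median difference of 1.12. Itga2b (CD41), the first surface mark of blood commitment, was at 7.87 and 8.54 in WT Scl+ and at 6.86 and 7.33 in WT Scl- (1.12, SE 0.35). The stem cell factor receptor Kit was at 6.99 and 7.64 against 5.86 and 6.43 (1.17, SE 0.31). F2r, a thrombin receptor, was at 12.04 and 12.42 against 10.11 and 11.52 (1.42, SE 0.46). In these 3 genes WT Scl+ replicate 2 was the higher array. It was also the higher for Cd34, at 5.07 and 6.12 against a dim 2.93 and 4.61 (1.83, SE 0.62, or 1.00 at the limit). Alox5ap, which serves leukotriene synthesis, was at 6.08 and 5.60 against dim values of 3.90 and 4.51 (1.64, SE 0.28, or 1.26 at the limit). Vwf, the clotting factor of megakaryocytes and endothelium, differed by 1.35, or 0.65 without WT Scl+ replicate 2. F2r, Cd34 and Vwf differed by 0.71, 0.99 and 0.88 without WT Scl- replicate 1.

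Myeloid and leukocyte genes were higher in 5 of 15 tested members and lower in 0, but the median difference was only 0.29. Mpo, the granule peroxidase, was at 7.06 and 7.48 in WT Scl+ and at a dim 4.27 and 5.80 in WT Scl- (2.23, SE 0.54). Laptm5, a lysosomal protein of blood cells, was at 8.80 and 9.19 against 4.90 and 8.18, so its difference of 2.46 was 0.82 without WT Scl- replicate 1. Lcp1 (L-plastin) and Was, both actin regulators of leukocytes, differed by 1.71 and 1.31. Without the same array the differences of Mpo and Lcp1 were 1.47 and 0.90. Spi1 (PU.1), the myeloid master factor, was at 5.17 and 5.56 against 4.50 and 4.97 (0.63, SE 0.23). Gimap genes, a cluster of GTP-binding proteins on chromosome 6, were higher in 3 of 6. Gimap4 was at 6.32 and 7.49 against 2.18 and 5.60 (3.02, SE 1.06). Replicate 1 of WT Scl- was dim for Gimap4, Gimap8 and Gimap9, and without it their differences were 1.31, 1.03 and 0.63.

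Fermt3 (kindlin-3), which activates integrins in blood cells, had the largest positive moderated t of all genes. It was at 8.68 and 8.61 in WT Scl+ and at 6.90 and 7.25 in WT Scl- (1.57, SE 0.18, limma adjusted p = 0.399). Its other probe sets were less uniform, at 1.83, 0.39 and -0.21.

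ETS factors, the shared regulators of blood and endothelium, were higher in 5 of 12 and lower in 0 (median 0.56). Fli1 was at 8.06 and 9.07 in WT Scl+ and at 4.64 and 7.28 in WT Scl- (2.61, SE 0.82), and another probe set gave 2.47. Erg was at 8.45 and 9.15 against 4.88 and 7.58 (2.57, SE 0.84). Ets2 at 10.62 and 10.92 against 8.37 and 9.75, and Ets1 at 9.36 and 9.88 against 7.83 and 8.66, had smaller gaps between the replicates (1.71, SE 0.43, and 1.37, SE 0.35). Fli1, Erg and Ets2 differed by 1.29, 1.22 and 1.02 without WT Scl- replicate 1. Etv2, the ETS factor that acts before Scl in Flk1+ mesoderm, did not share this direction. It was at 10.27 and 10.60 in WT Scl+ and at 10.48 and 11.12 in WT Scl-, overlapping (-0.36, SE 0.33).

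Vascular transcription factors were higher in 6 of 10 (median 1.07). The SoxF genes, which act in vessel and lymphatic development, all met the rule. Sox18 was at 7.25 and 8.85 in WT Scl+ and at 4.04 and 6.58 in WT Scl- (2.74, SE 0.98), Sox7 at 7.98 and 8.13 against 4.62 and 7.24 (2.13, SE 0.83), and Sox17 at 6.80 and 7.26 against 4.80 and 6.24 (1.51, SE 0.47). Without WT Scl- replicate 1 these differences were 1.47, 0.82 and 0.78. Another probe set of Sox7 gave 0.71. Prox1, the lymphatic regulator, was at 8.25 and 7.92 against 7.00 and 7.12 (1.02, SE 0.21), with replicates close together and other probe sets at 0.47 and 0.94. Foxc2 was at 5.05 and 5.89 against dim values of 3.79 and 4.19 (1.48, or 0.88 at the limit).

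Receptors of vascular growth factors were among the higher genes. Of the VEGF and Tie genes 5 of 12 were higher and 1 lower, with a median of 0.17 that ran from 0.05 without WT Scl- replicate 1 to 0.44 without WT Scl+ replicate 1, and was 0.41 without WT Scl- replicate 2. Tek (Tie2), the angiopoietin receptor, was at 8.92 and 9.75 in WT Scl+ and at a dim 3.94 and 8.24 in WT Scl-. That is the widest gap between WT Scl- replicates among the receptors described here, and the difference of 3.25 (SE 1.32) was 1.10 without replicate 1. Tie1 was at 5.75 and 6.08 against a dim 4.39 and 4.80 (1.32, SE 0.32). The VEGF receptors Flt1 and Flt4 were at 8.43 and 9.28 against 6.45 and 8.23 (1.51, SE 0.61) and at 10.08 and 10.87 against 8.61 and 10.08 (1.13, SE 0.59). Without WT Scl- replicate 1 they differed by 0.62 and 0.40. Their neighbour in the family, Kdr, was used for the sort and did not differ beyond its spread. The lower member was a ligand, Vegfc, at 8.14 and 7.14 against 8.63 and 8.95 (-1.15, SE 0.34, or -0.64 without WT Scl+ replicate 2), and its other probe sets gave -0.48 and -0.85.

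Of 23 tested endothelial junction and surface genes 11 were higher by the size rule and 0 lower. A positive difference of any size was found in 22 of 23, beside 5963 of all 12923 genes tested. The median was 0.81, from 0.53 without WT Scl- replicate 1 to 1.27 without WT Scl+ replicate 1. Esam was at 7.31 and 8.58 in WT Scl+ and at a dim 4.07 and 6.91 in WT Scl- (2.46, SE 0.95). Plvap, of endothelial diaphragms, was at 7.19 and 8.32 against 4.86 and 6.39 (2.13, SE 0.64). Pecam1 (CD31) was at 6.64 and 7.78 against a dim 4.33 and 6.32 (1.88, SE 0.69). Cdh5 (VE-cadherin) was at 7.48 and 8.61 against 5.51 and 7.47, with almost no gap between WT Scl+ replicate 1 and WT Scl- replicate 2 (1.55, SE 0.71). For each of these 4 genes WT Scl+ replicate 2 was the highest array. Ecscr differed by 1.95, Tspan18 by 1.59, Icam2 by 1.43, Rasip1 by 1.43, Procr by 1.26 and Cldn5 by 1.12. Esam, Plvap, Pecam1 and Cdh5 differed by 1.03, 1.36, 0.89 and 0.57 without WT Scl- replicate 1. Leaving out that array gave 0.91 for Ecscr, 0.72 for Tspan18, 0.72 for Rasip1, 0.81 for Procr and 0.42 for Cldn5. Thbd (thrombomodulin) was at 5.16 and 5.73 against dim values of 4.07 and 4.27 (1.28, SE 0.29, or 0.86 at the limit).

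Among G protein coupled receptors of vessels and their partners, 6 of 17 were higher, among them F2r described above, and 2 lower. The lower ones were Ackr3, described below with the chemokines, and S1pr3. S1pr3 was at 3.79 and 3.19 against 4.31 and 5.11, all but the last dim (-1.22, or -0.28 at the limit). The median of the list was 0.62, but 0.37 without WT Scl+ replicate 2 and 0.40 without WT Scl- replicate 1. Calcrl, the receptor for adrenomedullin, was at 7.95 and 8.51 in WT Scl+ and at 4.74 and 6.34 in WT Scl- (2.70, SE 0.50). Its partner Ramp2 was at 9.93 and 10.78 against 6.87 and 9.44 (2.20, SE 0.81). The pair was thus higher together, Ramp2 with the wider spread. Adgrf5 differed by 1.57, Lpar6 by 1.08 and Adgra2 by 1.02. Ramp2, Adgrf5, Lpar6 and Adgra2 differed by 0.91, 0.78, 0.70 and 0.62 without WT Scl- replicate 1. Aplnr, the apelin receptor of early mesoderm, missed the rule at 11.85 and 11.95 against 11.38 and 11.57 (0.42, SE 0.16).

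**Figure D3:**
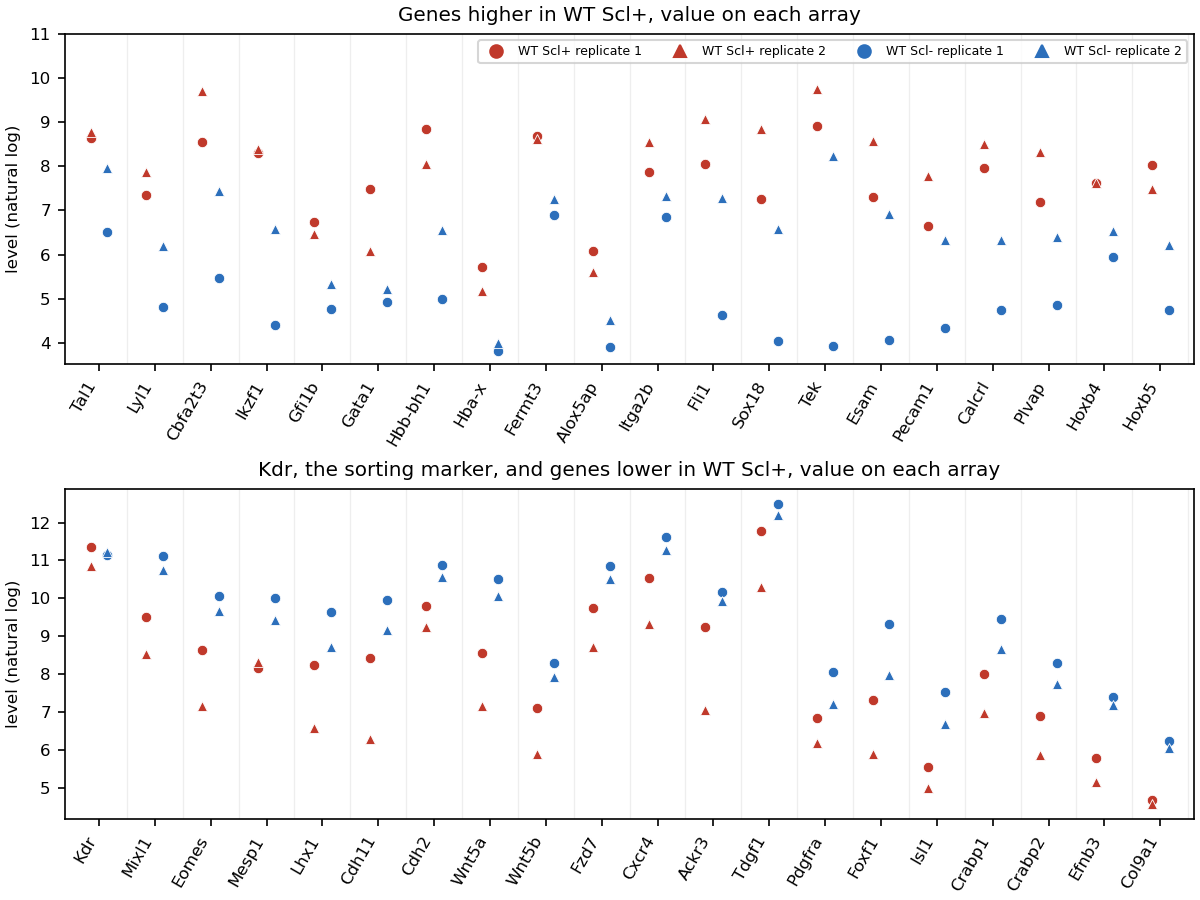
Points show the level (natural log) on each WT array for 20 genes in each panel: genes higher in WT Scl+ above, and Kdr with genes lower in WT Scl+ below. Circles are replicate 1 and triangles replicate 2, with WT Scl+ in red and WT Scl- in blue; for most higher genes the blue triangle (Tek, 8.24) lies far above the blue circle (3.94), and for most lower genes the red triangle (Cdh11, 6.29) lies below the red circle (8.44).

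Genes lower in WT Scl+ were led by the primitive streak. Of 18 tested streak and mesendoderm factors 9 were lower and 0 higher, with a median of -1.15, or -0.59 without WT Scl+ replicate 2. Mixl1, a homeobox factor of the streak, was at 9.51 and 8.54 in WT Scl+ and at 11.13 and 10.76 in WT Scl- (-1.92, SE 0.33). Eomes, a T-box factor, was at 8.63 and 7.16 against 10.07 and 9.66 (-1.97, SE 0.46), and another probe set gave -2.16. Lhx1 was at 8.24 and 6.59 against 9.63 and 8.71 (-1.75, SE 0.56), and Evx1 at 9.05 and 7.72 against 9.92 and 9.58 (-1.37, SE 0.42). In these 4 genes WT Scl+ replicate 2 was about 1 log unit or more below replicate 1. Mesp1, which marks the earliest cardiovascular mesoderm, had no such gap, at 8.16 and 8.33 against 10.01 and 9.43 (-1.47, SE 0.22, limma adjusted p = 0.399). Mesp2, a relative of Mesp1, differed by -1.46 (SE 0.34), with no dim array, and the ligand Wnt3 at 6.02 and 5.34 against 7.22 and 6.91 (-1.39, SE 0.28). Gsc (goosecoid) was at 5.82 and a dim 4.57 against 6.53 and 6.49 (-1.32, SE 0.40), and Sp8 at 5.92 and a dim 3.90 against 7.10 and 6.15 (-1.71, SE 0.65). Without WT Scl+ replicate 2 the differences of Gsc and Sp8 were -0.69 and -0.70, and those of Eomes, Lhx1 and Evx1 were -1.24, -0.92 and -0.70.

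Nodal pathway genes were lower in 4 of 14 and higher in 0 (median -0.19, from -0.36 without WT Scl- replicate 2 to -0.08 without WT Scl- replicate 1). Tdgf1 (Cripto), the Nodal co-receptor, was at 11.77 and 10.29 in WT Scl+ and at 12.50 and 12.20 in WT Scl- (-1.32, SE 0.45). Lefty2, a Nodal inhibitor, was at 7.65 and 6.32 against 8.58 and 7.79 (-1.20, SE 0.46). The protease Pcsk5 was at 7.59 and 6.00 against 9.03 and 8.68 (-2.06, SE 0.52), and the receptor Acvr2a differed by -1.05. The ligand Nodal itself overlapped, at 7.72 and 6.70 against 7.00 and 6.97 (0.22, SE 0.32). Without WT Scl+ replicate 2 the differences of Tdgf1, Lefty2 and Acvr2a were -0.58, -0.53 and -0.48, and that of Pcsk5 was -1.27. Another probe set of Acvr2a gave -0.52, and those of Pcsk5 gave -1.70, -0.88 and -1.65.

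Wnt genes were lower in 8 of 36 and higher in 1, with a median of -0.03. Wnt5a, a ligand of the noncanonical pathway, was at 8.57 and 7.17 in WT Scl+ and at 10.50 and 10.06 in WT Scl- (-2.41, SE 0.44), and its other probe sets gave -2.77, -1.85 and -2.21. The related ligand Wnt5b was at 7.11 and 5.89 against 8.31 and 7.94 (-1.63, SE 0.40). Of the receptors, Fzd7 was at 9.76 and 8.71 against 10.86 and 10.51 (-1.45, SE 0.35), while Fzd10 was the higher member, at 7.49 and 6.67 against 5.34 and 6.04 (1.40, SE 0.34), although another of its probe sets gave -0.10. The secreted inhibitors Frzb and Dkk1 differed by -1.53 and -1.03. Lef1, a nuclear effector, was at 9.36 and 8.61 against 10.54 and 9.80 (-1.18, SE 0.33). Axin2, a feedback target, missed the rule at -0.87 (SE 0.33). Wnt5b, Fzd7 and Frzb differed by -1.02, -0.92 and -0.69 without WT Scl+ replicate 2, and another probe set of Fzd7 gave -0.55.

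Some cardiac and paraxial mesoderm factors were lower as well. Of 19 tested cardiac transcription factors 5 were lower and 1 higher, with a median of -0.60 that was -0.39 without WT Scl+ replicate 2. Isl1, of the second heart field, was at 5.57 and 5.01 in WT Scl+ and at 7.53 and 6.68 in WT Scl- (-1.81, SE 0.35), and another probe set gave -2.05. Foxf1, of lateral plate mesoderm, was at 7.33 and 5.91 against 9.33 and 7.99 (-2.04, SE 0.67), whereas its other probe set gave -0.47. Hand1 was at 8.06 and 6.85 against 9.40 and 8.31 (-1.40, SE 0.57), and Tbx2 at 4.85 and a dim 4.30 against 6.62 and 5.59 (-1.53, SE 0.41). Gata4 and Gata6 had smaller differences of -0.69 (SE 0.20) and -0.60 (SE 0.17) without overlap. Another probe set of Gata6 gave -0.15. Without WT Scl+ replicate 2 the differences of Foxf1 and Hand1 were -1.32 and -0.79, and without WT Scl- replicate 1 those of Hand1 and Tbx2 were -0.85 and -1.01. The higher member was Mef2c, also an endothelial and blood factor. Contractile genes did not share this direction: 1 of 20, the atrial light chain Myl7, was lower (-1.43, SE 0.39, or -0.95 without WT Scl+ replicate 2), 0 were higher and the median was 0.02.

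Of 14 tested segmentation and paraxial mesoderm genes 3 were lower and 1 higher (median -0.72, or -0.45 without WT Scl- replicate 1). Cdh11, a mesenchymal cadherin, was at 8.44 and 6.29 in WT Scl+ and at 9.96 and 9.17 in WT Scl- (-2.20, SE 0.68), and Pcdh8 (paraxial protocadherin) at 6.80 and 5.68 against 7.97 and 7.31 (-1.40, SE 0.40). Other cadherins took both directions. Cdh2 (N-cadherin) was at 9.79 and 9.24 against 10.89 and 10.56 (-1.21, SE 0.23), and Pcdh7 and Pcdh18 differed by -1.59 and -1.62. Cdh11, Pcdh8, Pcdh7 and Pcdh18 differed by -1.12, -0.84, -0.88 and -0.93 without WT Scl+ replicate 2. Cdh1 (E-cadherin) was the reverse, at 9.29 and 7.71 against 7.55 and 6.87, but its WT Scl+ replicates were 1 log unit and more apart (1.29, SE 0.53, or 0.50 without WT Scl+ replicate 1).

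Of genes with a role in mesoderm migration, 2 of 5 in the chemokine list were lower and 0 higher (median -0.56), and 2 of 5 in the PDGF list were lower and 0 higher (median -0.49, from -0.76 without WT Scl+ replicate 1 to -0.22 without WT Scl+ replicate 2). Cxcr4, the receptor for the chemokine Cxcl12, was at 10.54 and 9.32 in WT Scl+ and at 11.63 and 11.28 in WT Scl- (-1.53, SE 0.39, or -0.92 without WT Scl+ replicate 2). Ackr3, which binds the same chemokine, was at 9.24 and 7.06 against 10.17 and 9.94 (-1.91, SE 0.69, or -0.82 without WT Scl+ replicate 2). The ligand Cxcl12 itself was near the dim limit on all 4 arrays and overlapped (-0.22). Pdgfra, a marker of paraxial and cardiac mesoderm, was at 6.85 and 6.18 against 8.05 and 7.23 (-1.13, SE 0.34), and its ligand Pdgfa at 7.38 and 6.20 against 7.93 and 7.89 (-1.12, SE 0.37). The difference of Pdgfra was -0.72 without WT Scl- replicate 1, and that of Pdgfa -0.53 without WT Scl+ replicate 2. Among guidance genes 4 of 35 were lower and 0 higher (median -0.22, from -0.56 without WT Scl+ replicate 1 to -0.07 without WT Scl- replicate 1). The ephrins Efnb3, at 5.80 and 5.16 against 7.41 and 7.19 (-1.82, SE 0.24), and Efna3, at 7.05 and 6.31 against 8.68 and 7.91 (-1.62, SE 0.34), led them. Efnb2, the arterial ephrin, was on the other side at 10.78 and 10.64 against 10.24 and 10.44 (0.37, SE 0.17).

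Other signalling lists held few members past the rule. BMP genes had 1 lower of 22, Bmp7 (-1.22, SE 0.38, or -0.66 without WT Scl+ replicate 2), and FGF genes 1 lower of 21, Fgfr2 (-1.53, SE 0.77, or -0.81 without WT Scl- replicate 1). Another probe set of Fgfr2 gave -0.58. Bmp4, which induces Flk1+ mesoderm, was at 9.37 and 8.94 against 9.80 and 9.89 (-0.69, SE 0.27). Of 12 retinoic acid genes 2 were lower, the binding proteins Crabp1, at 8.01 and 6.98 against 9.47 and 8.68 (-1.58, SE 0.42), and Crabp2, at 6.91 and 5.88 against 8.30 and 7.75 (-1.63, SE 0.38). Notch genes had none past the rule in 18. The target Hey1 had the largest Notch difference and close replicates, at 9.85 and 9.85 against 10.57 and 10.79 (-0.83, SE 0.15), while its relative Hey2 went the other way, at 7.47 and 8.14 against 6.61 and 7.36 (0.82, SE 0.32). Mesenchymal transition factors, which are not a signalling list, were lower in 4 of 14 and higher in 1 (median -0.21). That is a larger share than the 1.19% lower and 1.85% higher over all genes tested. The lower members were Foxf1 and Cdh2, both described above, Msx2 (-1.36, SE 0.45, or -0.71 without WT Scl+ replicate 2) and Snai2. The higher member was Cdh1. Snai2 was among the lower on 1 array alone, at 6.78 and 3.50 against 7.00 and 6.98, and another of its probe sets gave 0.00.

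Hox genes were split within 1 cluster. Of 16 tested, 3 were higher and 1 lower (median 0.03), and all 4 are Hoxb genes on chromosome 11. Hoxb5 was at 8.02 and 7.48 in WT Scl+ and at 4.74 and 6.22 in WT Scl- (2.27, SE 0.50). Hoxb4, known for expanding blood progenitors when overexpressed, was at 7.62 and 7.63 against 5.95 and 6.53 (1.38, SE 0.28). Hoxb2 was at 6.15 and 6.01 against 5.10 and 4.75 (1.15, SE 0.17, limma adjusted p = 0.399). These 3 had closer WT Scl+ replicates than most endothelial genes above. Hoxb3, which lies between them, differed by 0.41 (SE 0.41). Hoxb1 was at 4.82 and a dim 2.27 against 5.50 and 4.88, a difference of -1.65 that was -0.49 at the limit and -0.37 without WT Scl+ replicate 2.

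Lists of general cell functions and of other lineages were counted for comparison. Except for cell cycle and glycolysis, each list held a larger share past the rule than all genes tested (1.85% higher, 1.19% lower). Cell cycle and DNA replication genes had none past the rule in 32 (median 0.02), with the proliferation marker Mki67 at 12.20 and 12.24 against 11.89 and 11.96 (0.29, SE 0.14). Glycolysis and hypoxia genes had none in 24 (median -0.07). Endoderm and yolk sac genes had 2 higher and 1 lower of 18, and neural genes 1 higher of 11. Trophoblast genes had 1 lower of 8, which was Hand1, also described as a cardiac factor. The medians of these 3 lists lay between -0.30 and 0.03. Of the endoderm genes, Spink1 was at 8.43 and 7.13 against 5.47 and 5.75 (2.17, SE 0.40), and the other higher member was Sox17, which endothelium also expresses. Pluripotency genes had 2 higher and 1 lower of 18 (median 0.07). Dppa2 and Dppa4, a pair of chromatin proteins, differed by 1.79 and 1.73, or by 0.66 and 0.61 without WT Scl- replicate 1. Imprinted genes had 1 in each direction of 19, Grb10 higher and Phlda2 lower (-1.63, SE 0.37). Grb10 was at 5.12 and 5.81 against dim values of 4.33 and 4.31 (1.15, or 0.88 at the limit). Collagens and laminins had 2 in each direction of 34, with the vascular Col18a1 higher (1.97, SE 0.56, or 1.13 without WT Scl- replicate 1) and Col1a1 lower (-1.38, SE 0.68, or -0.72 without WT Scl+ replicate 2).

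**Figure D4:**
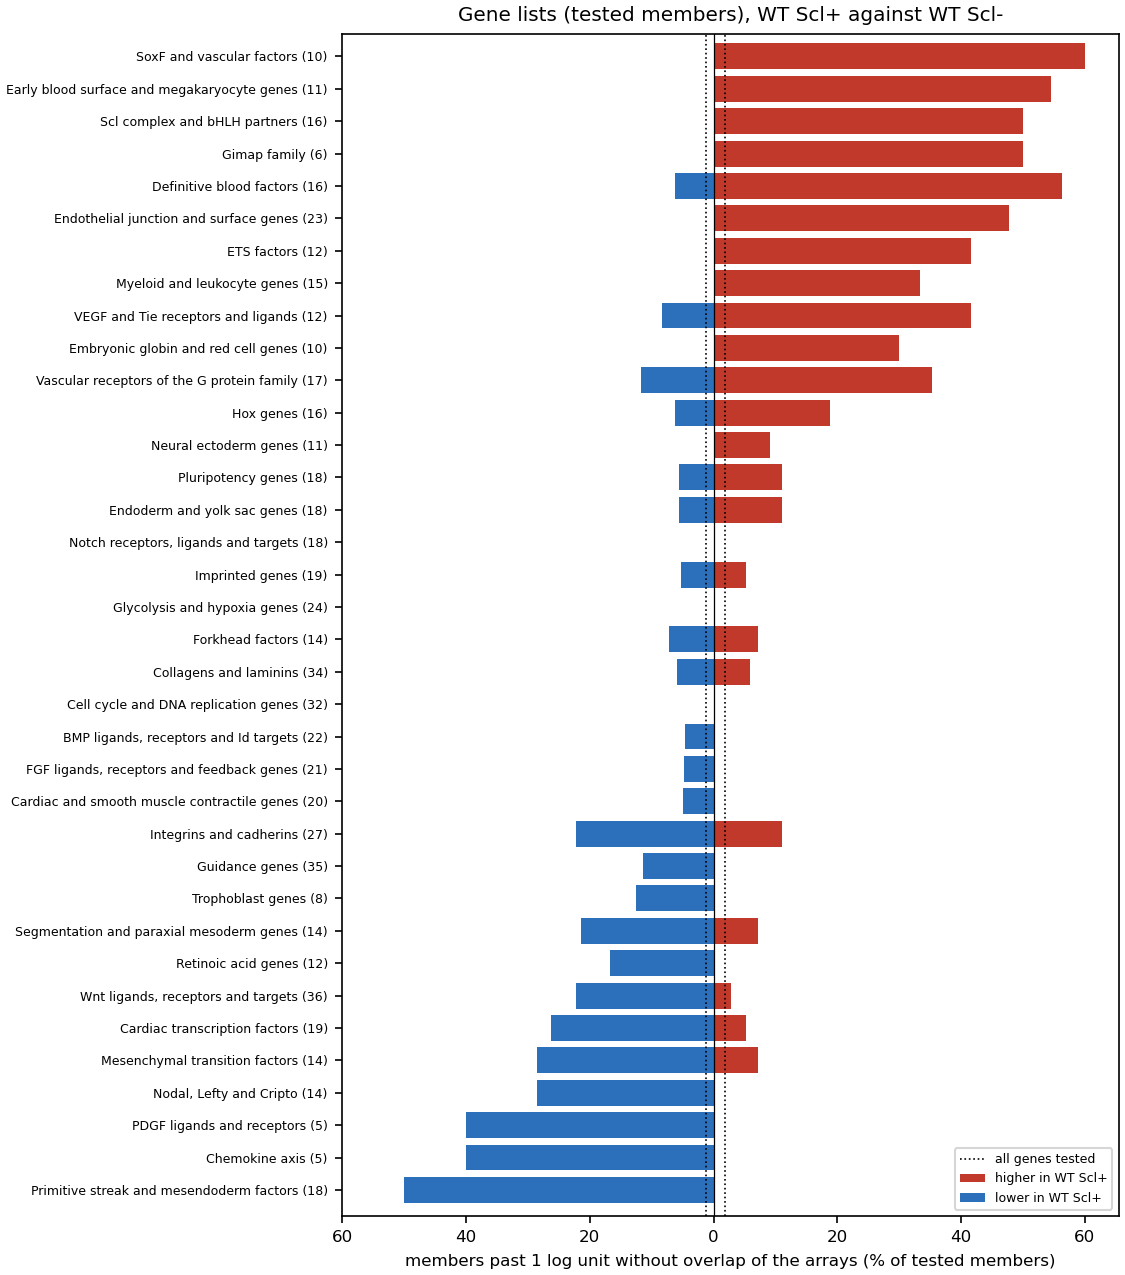
Bars give, for each gene list reported here, the percentage of tested members (number in brackets) higher to the right or lower to the left by at least 1 log unit without overlap of the arrays. Dotted lines mark the same share over all genes tested, 1.85% higher and 1.19% lower; blood and endothelial lists reach to the right and streak, chemokine and PDGF lists to the left.

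Genes with the largest moderated t were mostly genes with close replicates and not those with the largest difference. The lowest p of all belonged to Col9a1, a cartilage collagen, at 4.69 and 4.58 in WT Scl+ and at 6.25 and 6.05 in WT Scl- (-1.51, SE 0.15, limma adjusted p = 0.399). Cabp1, a calcium binding protein, was at 4.66 and 4.51 against 5.81 and 5.78 (-1.20, SE 0.16), and Neto2 at 4.85 and 4.92 against 6.06 and 5.98 (-1.13, SE 0.15). Cdk14, a kinase of Wnt signalling, was at 7.00 and 6.68 against 8.19 and 8.15 (-1.33, SE 0.19), with other probe sets at -1.10 and -0.49. Among the higher genes, Akap5, an anchor of protein kinase A, was at 6.27 and 6.34 against 4.07 and 4.54, both dim (2.00, SE 0.28, or 1.72 at the limit). Tlr3, the receptor for double-stranded RNA, was at 6.87 and 7.11 against 5.10 and 5.75 (1.57, SE 0.25). Tspan33, a tetraspanin of red cell progenitors, was at 9.10 and 8.44 against 6.94 and 7.36 (1.62, SE 0.27), and its other probe sets gave 0.29, 0.39 and 1.28. Adgrg1 (GPR56), a receptor of blood stem cells, was at 5.49 and 5.61 against 4.67 and 4.52 (0.96, SE 0.15).

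Other probe sets of a gene gave the same sign in most cases. Of the 393 genes past the size rule, 193 had another probe set above the dim limit, 288 probe sets in all. In 273 of these the sign was that of the probe set used, and in 148 the size was also at least 1 log unit. The median ratio to the probe set used was 0.72. These probe sets read the same RNA on the same arrays, so their agreement does not bear on the spread between samples. The same share over all genes tested was not counted.

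The promoters of the genes past the size rule were searched for the letters that ETS, GATA and bHLH factors are known to bind, since factors of all 3 families were among the higher genes. RefSeq promoter windows (assembly GRCm38.p6, 250 bases before each annotated start, both strands searched) were matched for 161 of the 239 higher genes (227 windows), 117 of the 154 lower genes (163 windows) and 10379 of all 12923 genes (13172 windows). The ETS letters AGGAAG stood in 40.1% of the windows of higher genes, in 22.1% of those of lower genes and in 27.8% of all. The GATA letters AGATAA stood in 9.3%, 5.5% and 5.8%, and the E-box letters CAGNTG, bound by bHLH pairs, in 46.3%, 44.8% and 39.3%. GATA and E-box letters together stood in 4.4%, 3.7% and 2.5% of the windows. Windows of 1 gene overlap, a match is not a binding site, and these shares were not tested.

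To show what such windows look like, 4 higher genes with 1 window each and 2 ETS matches are printed with Mesp1, a lower gene whose window holds no ETS or GATA letters. All run 5′ to 3′ along the gene's strand and end at the base before the start. Capitals mark the ETS letters or their reverse complement. Gimap4 is at chr6:48684328-48684577 on the plus strand, and the others are on the minus strand: Flt1 at chr5:147726012-147726261, Was at chrX:8090492-8090741, Itga2b at chr11:102469884-102470133 and Mesp1 at chr7:79793591-79793840.
Gimap4: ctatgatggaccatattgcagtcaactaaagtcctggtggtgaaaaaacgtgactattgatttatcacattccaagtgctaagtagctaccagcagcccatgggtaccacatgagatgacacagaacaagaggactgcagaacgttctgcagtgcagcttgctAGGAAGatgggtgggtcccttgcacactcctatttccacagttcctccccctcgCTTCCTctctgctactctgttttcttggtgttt
Flt1: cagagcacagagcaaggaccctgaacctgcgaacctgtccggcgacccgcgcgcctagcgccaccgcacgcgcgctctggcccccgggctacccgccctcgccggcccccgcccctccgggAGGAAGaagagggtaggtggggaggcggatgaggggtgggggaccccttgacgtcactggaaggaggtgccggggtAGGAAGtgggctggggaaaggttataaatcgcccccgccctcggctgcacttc
Was: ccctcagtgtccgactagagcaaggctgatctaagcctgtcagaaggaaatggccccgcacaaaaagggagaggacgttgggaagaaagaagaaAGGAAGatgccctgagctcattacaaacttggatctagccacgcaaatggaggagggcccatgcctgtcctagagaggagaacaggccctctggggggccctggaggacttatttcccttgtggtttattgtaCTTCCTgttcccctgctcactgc
Itga2b: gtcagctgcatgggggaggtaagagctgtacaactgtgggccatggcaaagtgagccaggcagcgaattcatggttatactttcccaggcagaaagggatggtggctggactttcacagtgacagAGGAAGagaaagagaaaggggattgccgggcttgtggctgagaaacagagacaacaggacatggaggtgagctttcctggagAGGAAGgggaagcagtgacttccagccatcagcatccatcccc
Mesp1: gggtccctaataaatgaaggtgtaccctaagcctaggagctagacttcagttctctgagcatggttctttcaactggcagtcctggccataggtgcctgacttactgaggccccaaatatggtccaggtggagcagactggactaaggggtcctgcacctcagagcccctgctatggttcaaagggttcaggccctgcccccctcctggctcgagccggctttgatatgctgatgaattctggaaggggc

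The ETS matches began 87 and 33 bases before the start in Gimap4, 129 and 53 in Flt1, 156 and 23 in Was, and 125 and 43 in Itga2b. Itga2b and Mesp1 each hold 2 E-box matches in the same window, so E-box letters occur in a gene of either direction. The printed genes were picked by their matches, and ETS letters do not separate the directions gene by gene. The windows of the higher genes Tek, Myb and Lyl1 held 0 ETS matches. Those of the lower genes Tdgf1, Fzd7 and Fgfr2 held 1 each. Flt1, Was, Itga2b and Gimap4 differed by 1.51, 1.31, 1.12 and 3.02, and Mesp1 by -1.47.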

How the data were processed

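Total RNA of sorted cells was hybridised to Affymetrix mouse arrays. RMA, affy and limma were the authors' tools, as listed without versions per the submitters' processing notes. RMA subtracts background, equalises the arrays' distributions and summarises each probe set. The values deposited are not logs, and no source states their base. They ran from 3.256 to 2822995, with 1040 to 1153 probe sets per array above 65535, the ceiling of a 16-bit scanner. Their natural log (1.18 to 14.85, medians 5.2 to 5.25) was used throughout.

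Of 45101 deposited probe sets, 34958 had 1 gene symbol in GEO's platform annotation, 932 several and 9211 none. Symbols were updated through RefSeq for 34754. Each of the 18194 genes was represented by its brightest probe set on average over the 6 arrays. Genes above the 40th percentile of 2 or more of the 6 arrays were tested (12923 genes). Group means were fitted over the 6 arrays in limma 3.58.1, run in R 4.3.3 (eBayes, two-sided, Benjamini-Hochberg over all genes tested), and the fit was tested on simulated data. The median residual SD, as moderated by eBayes, was 0.19 log units. Replicate numbers come from the titles, and nothing says that they pair the samples.

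The comparison, the 37 gene lists (753 genes) and the rules were chosen with earlier results of these data known, so lists are described by counts and medians with no set test. The result of 1 list is not reported here. Named by rule were Tal1, Kdr, the 15 genes with the largest moderated t in each direction (unadjusted p under 0.01, no overlap, not dim where higher), and up to 4 members per list and direction with the largest difference past the size rule, or the member with the largest difference where none passed. Further list members were named after their values were seen. Promoter windows are RefSeq's, matched by symbol. Alternatives changed the block, samples, weights, eBayes settings, normalisation, centring, dim filter, probe set rule, offset and replicates.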

Additional observations from a re-analysis of the deposited data

How the results depend on the processing

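With the replicate number as a block, 887 genes were higher and 690 lower at an unadjusted p under 0.05, and 0 had an adjusted p under 0.05. Same-numbered arrays deviated from their group means together (r = 0.25 for each pair of groups), but with 2 numbers this does not show a pairing. Leaving out each array in turn gave 0 to 203 genes with an adjusted p under 0.05 (0 to 35 higher, 0 to 168 lower), the highest counts being those without WT Scl+ replicate 1. At an unadjusted p under 0.05 it gave 290 to 1165 higher and 201 to 2093 lower genes, and by the size rule 129 to 398 higher and 54 to 556 lower. With every probe set as its own feature these counts were 1172 and 1058, and 402 and 329, over more features. The median of the Scl complex list was 0.26 with every probe set and 0.35 with a 60th percentile filter, and that of the definitive blood factors 0.66 with every probe set. The latter ran from 0.86 to 1.96 without 1 array, and the streak median from -1.62 to -0.59. The difference of Kdr ran from -0.32 without WT Scl+ replicate 1 to 0.17 without WT Scl+ replicate 2. The cause of these shifts was not tested. Of the 134 genes named by rule, Kdr was the only one to change sign under any setting run. The arrays of the others named by rule did not overlap, so leaving out 1 array could not change their sign. Genes named outside the rule, some of which overlapped (Etv2, Nodal), were not in this count. The block, weights, eBayes settings and dim filters leave a gene's difference as it is. A 60th percentile filter left 112 of the genes named by rule to compare. Searching all 300 bases of the promoter windows gave ETS shares of 45.4%, 24.5% and 32.7% for higher, lower and all genes, and choosing genes by unadjusted p gave 32.3% and 25.2% in 250 bases. With 2 arrays a group, leaving out 1 leaves a lone array that is assumed to vary like the others.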

Other observations

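The 2 WT Scl+ arrays differed from each other in several gene lists. Relative to replicate 1, WT Scl+ replicate 2 was higher in 4990 of all 12923 genes tested (median -0.11 log units), in 21 of 23 endothelial junction genes (0.61) and in 5 of 6 Gimap genes (0.54). For red cell genes this was 3 of 10, a share near that of all genes, with a median of -0.34. It was higher in 3 of 18 streak factors (median -0.89) and in 3 of 18 pluripotency genes (-0.54). Nanog was at 8.59 and 6.26 on these arrays, Pou5f1 at 9.26 and 7.79, Sox2 at 5.83 and a dim 2.86, and Fgf5 at 8.85 and 5.70. Between the WT Scl- arrays, replicate 2 was higher in 20 of 23 endothelial junction genes (0.75), in 12 of 16 definitive blood factors (0.92) and in 1 of 18 streak factors (-0.43), beside 6308 of all 12923 genes (0.00). Replicates have no order, and what set them apart was not tested.

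Most genes past the size rule lay outside the lists: 155 of the 239 higher and 100 of the 154 lower. The lists held 595 of all 12923 genes tested, but 84 of the higher and 54 of the lower genes. They therefore held a larger share of these genes than of all genes, and they were chosen with earlier results of these data known. The following were chosen after their values were seen. Ctla2a, a cysteine protease inhibitor, was at 11.78 and 12.48 in WT Scl+ and at 5.50 and 11.57 in WT Scl-, the widest split between WT Scl- replicates among the genes named here, so its difference of 3.60 (SE 1.81) was 0.56 without replicate 1. Its neighbour Ctla2b on chromosome 13, whose sequence is similar enough that probe sets may not separate the pair, was at 9.09 and 9.87 against 3.35 and 8.78. Hapln1, a hyaluronan link protein, was at 9.78 and 10.57 against 4.81 and 8.95 (3.30, SE 1.27, or 1.23 without WT Scl- replicate 1), and Tnfaip2 at 10.77 and 11.39 against 7.05 and 9.61 (2.75, SE 0.84, or 1.48 without that array), with other Tnfaip2 probe sets at 2.21 and 0.51. On the lower side, Tnfrsf19 (Troy) was at 7.06 and 3.94 against 8.40 and 7.72 (-2.56, SE 0.94). Gas1, a hedgehog co-receptor, was at 8.74 and 6.80 against 9.97 and 9.44 (-1.93, SE 0.60), and Wls, which carries Wnt proteins out of the cell, at 8.74 and 7.04 against 9.53 and 9.16 (-1.45, SE 0.52). Tnfrsf19, Gas1 and Wls differed by about -1, -0.96 and -0.60 without WT Scl+ replicate 2. Other probe sets gave -0.53 and -1.01 for Tnfrsf19, -1.26 and -0.75 for Gas1, and -0.69 and -1.34 for Wls. The limma adjusted p of the genes chosen here lay between 0.439 and 0.628.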
